A study of Mus musculus with 4 samples.

Results

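The Ifi200 genes encode interferon-inducible proteins, most of which join a pyrin domain to a DNA-binding HIN domain and several of which sense DNA inside the cell. The listed genes were Aim2, Ifi203, Ifi204, Ifi206, Ifi207, Ifi208, Ifi209, Ifi213 and Mndal. They were taken by name, with older platform symbols updated, and each was read from a probe set that named it alone. Where a gene had several, the probe set would be chosen by its mean over the 4 arrays, the only measured value in the selection; that mean ignores the groups. Of the 9 listed genes, 8 had a probe set of their own among 30678 measured genes, and Ifi203 had only a probe set shared with the pseudogene Ifi203-ps and LOC100862473. None of the 8 had more than 1 such probe set.

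Affymetrix arrays measured RNA of whole lung from adult mice of matched age, 2 arrays from mice whose strain is labelled SCD Tg, carrying sickle cell disease (SCD), and 2 from wild-type (WT) mice labelled C57/BL6. The labels name neither the SCD line nor its transgene, its promoter or its strain background, nor the sex of the animals, and leave open whether the arrays come from separate animals, so the p-values measure only the spread between these samples. Because the SCD and WT groups also differ in the labelled strain, the sickle genotype and the strain background cannot be told apart in any difference below. Values are deposited log2 expression values, differences are SCD minus WT with the moderated standard error (SE) from limma, and adjusted p-values are Benjamini-Hochberg values over all 30678 genes with a threshold of 0.05. Array medians over all transcript clusters were 5.59 and 5.59 for SCD and 5.65 and 5.60 for WT, and the surfactant gene Sftpc and the club cell gene Scgb1a1 stood at 19.93 on all 4 arrays, the top of the table. With 2 arrays a group, precision is limited throughout.

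HIN domains grip the backbone of double-stranded DNA with little regard to its sequence. AIM2 then recruits the adaptor ASC (gene Pycard) through its pyrin domain and activates caspase-1, which matures interleukin 1 beta and interleukin 18 and cleaves gasdermin D. The p204 protein, product of Ifi204 and a mouse counterpart of human IFI16, has been tied to interferon induction through STING, the adaptor that also serves the DNA sensor cGAS. The family lies in 1 cluster on distal chromosome 1, and its gene content and expression are known to differ between inbred mouse strains.

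Most of the family was lower in SCD lung. Ifi213, Ifi206, Ifi209, Mndal and Ifi207 fell, with differences between -1.61 and -1.12 on the log2 scale, and no member was called higher. Of the 8 genes, 5 passed as lower and 3 did not pass, whereas 0.636% of all genes passed as lower, 2.46% as higher and 3.1% in either direction. The fall of Ifi213 was known when the family was chosen, so that its count is a description of this family. The median difference of the 8 genes was -1.13, against 0.0018 for all genes. In 7 of the 8 genes both SCD arrays lay below both WT arrays, a pattern held by 22.5% of all genes. In either direction, the gap between the groups was wider than the spread within either group in 7 of the 8 genes, all but Ifi204. These 7 include Aim2, which was higher in SCD. The share of all genes with such a gap was not counted, so this count cannot be called particular to the family. Without either single SCD array limma called 0 of 30678 genes, members included, with 6 and 7 of the 8 members at an unadjusted p under 0.05. In bulk tissue, fewer cells of a type and less RNA per cell cannot be told apart. Whether the groups differ in gene content or in sequence under the probes, which could also change a signal, was not tested.

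**Figure D1:**
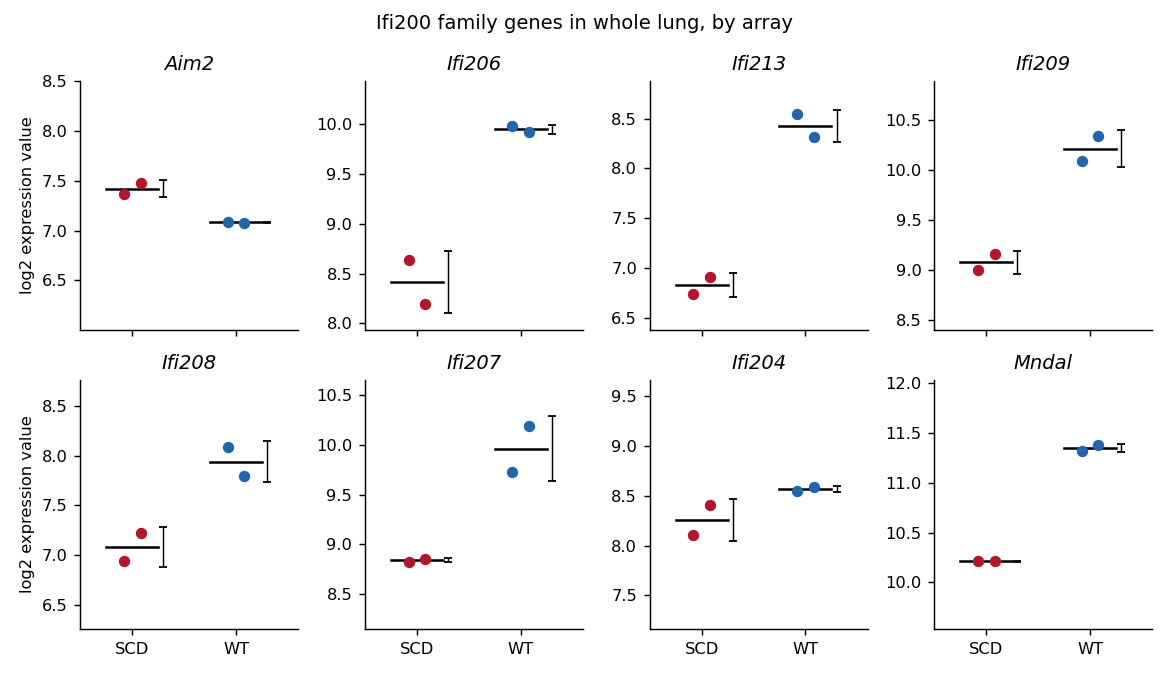
Log2 expression values of the 8 family genes with a probe set of their own, by array: SCD arrays in red, WT arrays in blue, bars at the group mean and whiskers of 1 SD (n = 2). Each panel spans the same height on the log2 scale; the groups do not overlap in any panel, and Aim2 alone lies higher in SCD.

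Ifi213, Ifi206 and Ifi208 form a group with near-identical upstream sequence. Ifi213, listed on the platform under its older symbol Pydc4, had log2 values of 6.74 and 6.91 in SCD lungs, against 8.54 and 8.32 in WT lungs. The groups stood far apart, and the spread within each was small. Its mean was 6.83 ± 0.12 in SCD and 8.43 ± 0.16 in WT (SD, n = 2 each), a difference of -1.61 ± 0.13 (SE; 3.04-fold lower; limma adjusted p = 0.0082). Counted from the lowest difference, it ranked 22 among all 30678 genes.

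Ifi206, listed as Gm4955, had values of 8.64 and 8.20 in SCD lungs, against 9.98 and 9.92 in WT lungs. The SCD arrays differed from each other more than the WT arrays did, but both lay more than a full log2 unit below them. The difference was -1.53 ± 0.17 (SE; 2.89-fold lower; limma adjusted p = 0.016). It kept its sign but missed the threshold without any single array, with adjusted p between 0.065 and 0.108.

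Ifi208, listed as Pydc3 after its pyrin domain, had values of 6.94 and 7.22 in SCD lungs, against 8.08 and 7.79 in WT lungs. The groups did not overlap, yet Ifi208 did not pass: the difference was -0.86 ± 0.16 (SE; limma adjusted p = 0.071), with a 95% interval from -1.27 to -0.44. It passed with the dimmer 50% of genes left out (adjusted p = 0.046) and with the shift of the exon control probe sets taken off the SCD arrays (adjusted p = 0.048).

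The promoters of these genes are shown because most of the listed genes carry the same short element, called or not. RefSeq promoter windows of GRCm38.p6 run from 250 bases before to 50 bases after an annotated start, which need not be the outermost end of the gene. They were found for 8 of the 9 listed genes, 10 windows in all, with a further window each for Mndal and Ifi203. Ifi204 was not among them. Local alignment matched 282 of 285 bases between Ifi213 and Ifi208 (98.9%), 279 of 282 between Ifi206 and Ifi208 and 263 of 267 between Ifi206 and Ifi213. Genes this alike upstream may also be alike where the probes lie; the probe sequences were not used here, and signal shared between these probe sets was not tested. The whole window of Ifi213, chr1:173599223-173599522 on the minus strand, is given 5′ to 3′, with capitals on its match to the core of the element through which type I interferon activates transcription (GAAA, any 2 bases, then GAAA).
Ifi213: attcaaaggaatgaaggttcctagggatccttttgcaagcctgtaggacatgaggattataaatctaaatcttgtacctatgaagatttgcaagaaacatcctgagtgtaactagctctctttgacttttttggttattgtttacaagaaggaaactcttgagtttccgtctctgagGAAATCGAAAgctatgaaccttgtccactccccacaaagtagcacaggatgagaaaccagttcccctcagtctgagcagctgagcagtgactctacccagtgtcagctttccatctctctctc

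The search for this core ran over both strands of each window. A match was found in any window of 6 of the 8 listed genes, against 3.44% of all 32851 windows, a share of windows and not of genes. These family windows share ancestry and are not independent. In all 6 genes a match read GAAATCGAAA on the gene's own strand, beginning between 35 and 73 bases before the annotated start of that window. In at least Ifi213 and Mndal this match falls inside the gene's full RefSeq span. The further Ifi203 window held no match, and the further Mndal window held only TTTCTCTTTC, a match on the opposite strand. No match to TTCNNNGAA, the core of the interferon gamma activation site, was found in any listed gene's window, against 8.3% of all windows with one. A match describes letters in a window and shows no use of the site in these lungs. The stretches of 60 bases around the match in Ifi206, chr1:173491324-173491383 (minus strand), and Ifi208, chr1:173673582-173673641 (plus strand), show how little these paralogs differ from the window of Ifi213.
Ifi206: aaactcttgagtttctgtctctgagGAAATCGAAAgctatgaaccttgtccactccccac
Ifi208: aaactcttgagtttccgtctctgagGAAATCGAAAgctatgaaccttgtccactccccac

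Ifi209 has an upstream sequence close to that of Ifi214, a family gene with no named probe set here. Ifi209, once named Pyhin1, had values of 8.995 and 9.15 in SCD lungs, against 10.09 and 10.35 in WT lungs. Both SCD arrays lay well below both WT arrays, and the difference was -1.14 ± 0.13 (SE; 2.21-fold lower; limma adjusted p = 0.018). The windows of Ifi214 and Ifi209 matched at 287 of 300 bases, and the Ifi214 window holds the element. In Ifi209 the aligned bases carry the substitution G1T, counted from the first base of the element in Ifi214, and give no match. The stretch of Ifi214, chr1:173536002-173536061 (minus strand), and that of Ifi209, chr1:173630755-173630814 (plus strand), are set side by side, with the element of Ifi214 and its aligned bases in Ifi209 in capitals.
Ifi214: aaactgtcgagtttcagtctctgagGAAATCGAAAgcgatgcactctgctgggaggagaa
Ifi209: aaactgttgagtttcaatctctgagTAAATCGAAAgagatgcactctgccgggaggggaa

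Mndal, named for its likeness to the myeloid nuclear differentiation antigen, had values of 10.21 and 10.22 in SCD lungs, against 11.32 and 11.38 in WT lungs. The arrays of each group lay almost on top of each other. Its mean was 10.21 ± 0.0053 in SCD and 11.35 ± 0.044 in WT (SD, n = 2 each), a difference of -1.14 ± 0.082 (SE; 2.2-fold lower; limma adjusted p = 0.0078). Ifi203, whose upstream sequence is close to that of Mndal, was read only through the shared probe set. That probe set had values of 10.38 and 10.39 in SCD lungs, against 11.00 and 11.00 in WT lungs. The groups did not overlap, and in limma over every transcript cluster the difference was -0.61 ± 0.095 (SE; adjusted p = 0.073), which did not pass. Ifi203-ps had a probe set of its own as well, with values of 11.27 and 11.38 in SCD lungs, against 12.41 and 12.38 in WT lungs, and fell by 1.07 ± 0.083 (SE; limma adjusted p = 0.0078). How much of the shared signal comes from Ifi203 and how much from the pseudogene was not tested. Mndal and Ifi203 matched at 282 of 299 bases upstream (94.3%). Their stretches, chr1:173880189-173880248 (minus strand) for Mndal and chr1:173942493-173942552 (minus strand) for Ifi203, are given with the element in capitals.
Mndal: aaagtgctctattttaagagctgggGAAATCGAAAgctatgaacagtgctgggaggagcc
Ifi203: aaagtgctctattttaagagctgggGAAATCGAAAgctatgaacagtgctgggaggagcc

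Ifi207, listed as AI607873, had values of 8.83 and 8.85 in SCD lungs, against 9.73 and 10.19 in WT lungs. The WT arrays differed from each other by 0.46, less than the gap of 0.88 between the groups. The difference was -1.12 ± 0.17 (SE; 2.18-fold lower; limma adjusted p = 0.042). It missed the threshold without the intensity trend (adjusted p = 0.064), with equal array medians (adjusted p = 0.051) and among every transcript cluster (adjusted p = 0.084). Its element lies in the stretch chr1:173741816-173741875 (minus strand).
Ifi207: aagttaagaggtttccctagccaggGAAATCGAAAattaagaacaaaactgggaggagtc

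The best-known DNA sensors of the family, Ifi204 and Aim2, did not pass. Ifi204 had values of 8.11 and 8.41 in SCD lungs, against 8.55 and 8.59 in WT lungs. The gap between the groups, 0.14, was smaller than the spread of the SCD arrays, 0.30. The difference was -0.31 ± 0.13 (SE; limma adjusted p = 0.345), with a 95% interval from -0.65 to 0.033. It was -0.16 without SCD replicate 1 and -0.46 without SCD replicate 2.

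Aim2 had values of 7.37 and 7.48 in SCD lungs, against 7.09 and 7.08 in WT lungs. Alone among the 8, it was higher on both SCD arrays than on both WT arrays, a pattern held by 25.3% of all genes. The difference was 0.34 ± 0.10 (SE; limma adjusted p = 0.201), with a 95% interval from 0.071 to 0.61. The Aim2 window, chr1:173420354-173420653 on the plus strand, held neither element.

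Other genes of the cluster did not all go the same way. The probe set shared by Ifi202b, Ifi205 and LOC100044068 was higher in SCD, with values of 8.15 and 8.35 in SCD lungs, against 6.93 and 6.53 in WT lungs. Ifi202b encodes p202, a HIN protein without a pyrin domain that opposes AIM2 and whose expression is known to vary between inbred strains. In limma over every transcript cluster this probe set rose by 1.52 ± 0.19 (SE; 2.87-fold; adjusted p = 0.048), where 0.914% of all transcript clusters passed as higher, 0.553% as lower and 1.47% in either direction. It missed the threshold without the intensity trend (adjusted p = 0.087), with the replicate block (adjusted p = 0.101) and without any single array (adjusted p between 0.089 and 0.334). Which of its genes carries the signal cannot be read from it. Ifi211, once named Mnda, had values of 9.34 and 9.44 in SCD lungs, against 9.10 and 8.85 in WT lungs. Its difference of 0.41 ± 0.12 (SE; limma adjusted p = 0.193) did not pass. These genes stand toward the end of the cluster, with Mndal and Ifi203, and the windows of Ifi211 and Ifi205 hold the element in the form GAAATTGAAA.

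**Figure D2:**
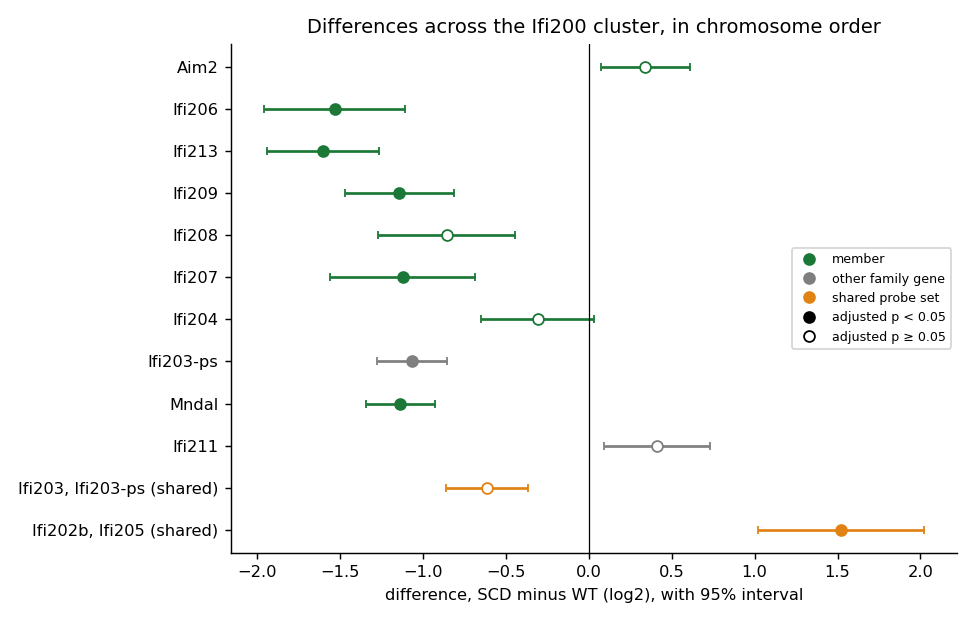
Difference between SCD and WT for each family gene on the log2 scale, from the first gene of the cluster at the top to the last at the bottom, with 95% intervals from limma. Filled points passed an adjusted p of 0.05; the shared probe sets come from the fit over every transcript cluster. Points from Ifi206 to Mndal lie below 0, while Aim2, Ifi211 and the shared Ifi202b and Ifi205 probe set lie above it.

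None of the genes measured around the cluster was called. By the RefSeq gene order, limma called none of the 20 measured genes before the cluster and none of the 20 after it, with 4 of these 40 genes at an unadjusted p under 0.05, against 5120 of all 30678. Their differences ran from -0.84 (Olfr417, an olfactory receptor gene) to 0.43 (Fh1, fumarate hydratase), with a median of 0.00. Both SCD arrays were below both WT arrays for 17.5% of them, against 22.5% of all genes. The nearest measured genes were Cadm3, an adhesion molecule gene, at 0.00 ± 0.12 (SE) before the cluster and Olfr433 at 0.27 ± 0.22 (SE) after it. Of the 40 neighbours, many of them olfactory receptor genes, 37 had a mean below the median of the intron control probe sets, 6.38. Cadm3 and Olfr433 were among these. The neighbours above it were Dusp23 (-0.37 ± 0.17 SE), Kmo (-0.31 ± 0.13 SE) and Fh1 (0.43 ± 0.12 SE). In each of them the groups did not overlap. The values of all 8 family genes lay above 6.38 on every array.

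**Figure D3:**
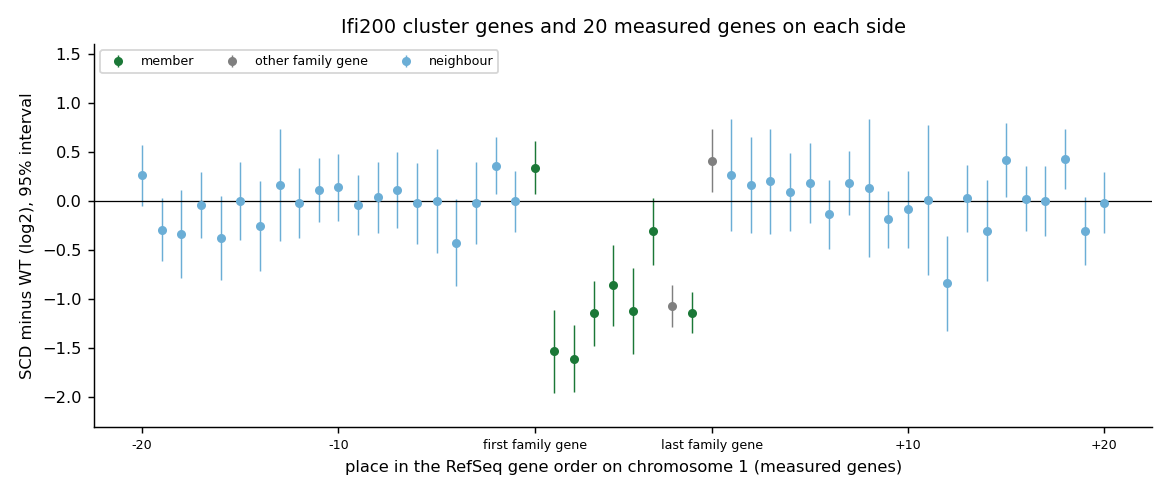
Differences between SCD and WT (log2, 95% intervals from limma) for the family genes with a probe set of their own and the 20 measured genes on each side, in gene order on chromosome 1. The 5 called members lie below every neighbour; the lowest neighbour, Olfr417 at -0.84, is about as low as Ifi208, and Aim2 and Ifi211 lie above 0.

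Of a short list of 3 genes with a known strain difference, 2 had a probe set of their own, and neither was called. The third, Ifi202b, was read only through the probe set shared with Ifi205 and LOC100044068. That probe set was called higher in limma over every transcript cluster (1.52 ± 0.19 SE, adjusted p = 0.048), though not under several other settings given above. H2-Ea, which C57BL/6 mice do not express, had values of 4.89 and 4.53 in SCD lungs, against 4.71 and 4.45 in WT lungs, which overlap. All of these values lie below the intron control median of 6.38. Nnt, a mitochondrial transhydrogenase gene partly deleted in C57BL/6J mice, had values of 7.45 and 7.51 in SCD lungs, against 7.76 and 7.76 in WT lungs; its difference of -0.28 ± 0.099 (SE; limma adjusted p = 0.251) did not pass. The bearing of strain background on the family was not tested.

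The interferon-stimulated genes outside the family were called higher where they were called at all. Of 38 measured genes of a list of 41 without family members, 5 rose, 0 fell and 33 did not pass, with a median difference of 0.24. Over all genes, 2.46% passed as higher and 0.636% as lower. Rsad2, which encodes the antiviral enzyme viperin, averaged 8.14 ± 0.203 in SCD lungs and 6.004 ± 0.297 in WT lungs (SD, n = 2 each), a difference of 2.14 ± 0.19 (SE; limma adjusted p = 0.0096). Igtp, an interferon-induced GTPase gene, rose by 1.59 ± 0.17 (SE; limma adjusted p = 0.016), and Bst2, which encodes tetherin, by 1.24 ± 0.11 (SE; limma adjusted p = 0.0088). Oas1a, an oligoadenylate synthetase gene, and Cxcl10, a T cell chemokine gene, also rose, with differences of 1.32 and 1.18. The ubiquitin-like modifier gene Isg15, at 0.58 ± 0.15 (SE; limma adjusted p = 0.138), did not pass. Both SCD arrays lay above both WT arrays for 24 of the 38 genes and below them for 3, against 25.3% and 22.5% of all genes.

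Interferon signalling genes gave no call. Limma called none of 16 measured genes (3 at an unadjusted p under 0.05), with a median difference of 0.036. The type I receptor gene Ifnar1 had a difference of -0.21 ± 0.10 (SE; adjusted p = 0.392). The deubiquitinase gene Usp18, a brake on that receptor, came closest to the threshold among them, at 0.85 ± 0.15 (SE; adjusted p = 0.061). The interferon beta gene Ifnb1 had values of 4.20 and 3.95 in SCD lungs, against 4.78 and 4.07 in WT lungs. These lie below the intron control median, and the groups overlap.

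Of 17 measured genes of the cGAS-STING route, limma called none (3 at an unadjusted p under 0.05). Sting1, the adaptor gene, had values of 8.36 and 7.99 in SCD lungs, against 6.89 and 7.30 in WT lungs. The groups did not overlap, and the difference was 1.08 ± 0.20 (SE; limma adjusted p = 0.068). Cgas, the sensor gene, stood at 0.056 ± 0.13 (SE; limma adjusted p = 0.889).

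Of 15 inflammasome genes, which include sensors that act beside AIM2 as well as genes that act after it, 3 rose, 0 fell and 12 did not pass. Il1b, the substrate gene of caspase-1, had values of 8.97 and 9.07 in SCD lungs, against 6.62 and 6.11 in WT lungs, a difference of 2.65 ± 0.19 (SE; limma adjusted p = 0.0078). Casp4, the caspase of the noncanonical inflammasome, rose by 1.53 ± 0.13 (SE; limma adjusted p = 0.0082), and Il1a by 1.30 ± 0.15 (SE; limma adjusted p = 0.020). Casp1 itself had values of 9.26 and 8.88 in SCD lungs, against 8.24 and 8.20 in WT lungs. Its difference of 0.85 ± 0.15 (SE; limma adjusted p = 0.061) did not pass, nor did those of Pycard (0.28 ± 0.13) and Gsdmd (0.030 ± 0.12).

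**Figure D4:**
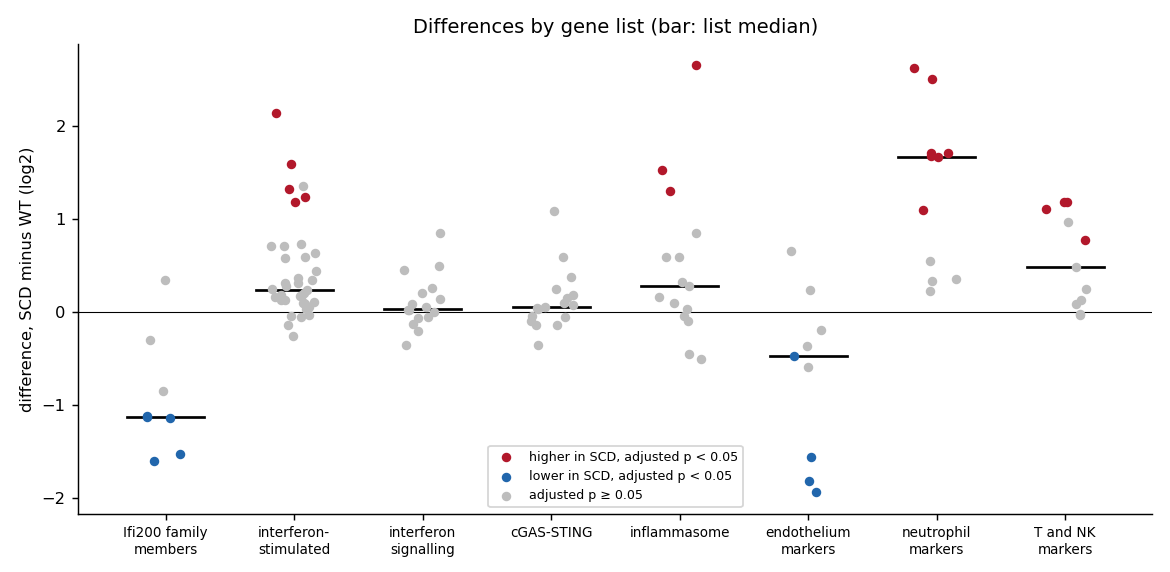
Differences between SCD and WT (log2) for the members, the interferon and DNA-sensing lists and 3 cell type marker lists; each point is a gene and the bar is the list's median. Red and blue points passed limma's adjusted p of 0.05 as higher or lower in SCD. The family median of -1.13 lies below 0 and that of the interferon-stimulated genes, 0.24, above it.

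Cell type markers also differed between the groups. Of 9 endothelial markers, 4 fell and 0 rose, and their mean log2 level was 11.19 and 11.23 in SCD lungs, against 11.83 and 11.94 in WT lungs. Pecam1 was among those that did not pass, with values of 12.21 and 12.30 in SCD lungs, against 11.93 and 12.11 in WT lungs. Cldn5 did not pass either, with 10.93 and 10.79 in SCD lungs, against 9.99 and 10.42 in WT lungs. In both genes the SCD arrays lay above both WT arrays. Of the 9, both SCD arrays lay below both WT arrays for 7 and above them for 2, against 22.5% and 25.3% of all genes. Of 11 neutrophil markers, 7 rose and 0 fell, with mean levels of 9.48 and 9.54 in SCD lungs, against 8.09 and 8.30 in WT lungs. Of 10 monocyte and macrophage markers, 2 rose and 0 fell, with mean levels of 9.05 and 8.97 in SCD lungs, against 8.41 and 8.51 in WT lungs. T and NK cell markers rose in 4 of 11 cases. Of 8 alveolar macrophage markers, 2 rose (Car4 and Plet1) and 2 fell (Marco and Fabp4). No B cell (7), plasmacytoid dendritic cell (6) or lung epithelial (8) marker passed. Of the epithelial markers, Sftpc and Scgb1a1 stood at the top of the table on all arrays and could not have passed. B cell marker means were 7.16 and 7.20 in SCD lungs, against 7.35 and 7.39 in WT lungs. The part of these cells in the differences of the family was not tested.

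The genes whose pattern over the 4 arrays was most like that of Ifi213, the member with the largest difference, were Gpihbp1, Efnb2 and Pcdh17. Likeness was the Euclidean distance between gene-centred log2 values over 4 arrays, taken among protein-coding genes. Gpihbp1, the capillary anchor of lipoprotein lipase, lay at a distance of 0.108, Efnb2, the ephrin-B2 gene, at 0.203, and Pcdh17, a protocadherin gene, at 0.24. Their differences were -1.56, -1.54 and -1.44. The closest family member, Ifi206, lay at 0.456 and ranked 34 in closeness among genes of any kind.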

How the data were processed

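Each array's deposited log2 values, 1 per probe set, were made by the authors with Affymetrix Expression Console, Partek and RMA per the submitters' processing notes, which give no version, role or order; the log2 scale was read from the values. GEO's platform annotation paired 31227 of 65956 transcript clusters with 1 gene and 1523 with several, after symbols were updated through Entrez IDs and, where absent (Gm4955 to Ifi206), synonyms in the RefSeq table of GRCm38.p6. Of several probe sets for 1 gene, the brightest on average was kept, giving 30678 genes, with no filter on dim values.

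The comparison of SCD with WT used limma 3.58.1 under R 4.3.3 (lmFit, eBayes with an intensity trend, group as the only term; two-sided; Benjamini-Hochberg over all genes). Probe sets of several genes were tested in the same way over all 65956 transcript clusters. Members, lists and motifs were chosen with earlier results of these data known. Named genes were all members, other family genes, up to 4 called genes per list and set reference genes, and called neighbours, of which there were none. Usp18, Ifnb1, Igtp, Pecam1, Cldn5, Sftpc, Scgb1a1, Olfr417, Fh1, Cadm3, Olfr433, Dusp23 and Kmo were chosen after their values were seen. Several genes the rule allows are left unprinted. Promoter windows were aligned with Biopython 1.88.

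For SCD against WT, data of 30678 genes were simulated. Of the genes changed by 1 on the log2 scale, 13.7% were recovered, and of those changed by 2, 84%, with at most 5 false calls. Far fewer genes were changed there than were called in the data, so these shares do not give the recovery in the data. Alternatives were a replicate block, other variance models, scalings, filters and thresholds, and each array left out.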

Additional observations from a re-analysis of the deposited data

How the results depend on the processing

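Without SCD replicate 1 or SCD replicate 2, limma called 0 of 30678 genes, with 3299 and 3264 at an unadjusted p under 0.05, and so 0 members, with 6 and 7 of the 8 at an unadjusted p under 0.05. Leaving out each array in turn gave 0 to 783 calls over all genes (507 without WT replicate 1), against 950 with all arrays, and 0 to 4 members lower, against 5. With 1 array left in a group, its spread is assumed to equal that of the other group. Under all 15 settings run, the 8 members kept their direction and none was called higher. An adjusted p threshold of 0.1 called 1749 genes. Member calls lower numbered 4 to 6 under the settings that kept all arrays; besides the changes given above for Ifi207 and Ifi208, Ifi208 passed at the threshold of 0.1. With the replicate block, limma called 972 genes and the same 5 members. The labels do not say that equal replicate numbers share anything, so the numbers were not taken to pair the samples. Deviations of same-numbered arrays had a correlation of -0.0022 across genes. The Ifi202b and Ifi205 probe set had an adjusted p of 0.101 with the replicate block and 0.037 after quantile normalization; its alternatives were chosen after seeing the data. Taking the exon control shift of 0.16 off the SCD arrays moved the median of all genes to -0.16 and the split from 755 higher and 195 lower (79.5% higher) to 541 and 427 (55.9% higher), while the Aim2 and Ifi211 differences stayed above 0, at 0.18 and 0.25.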
